A study of Homo sapiens with 16 samples.

Results

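Splicing factor genes, among them the regulators of the PKM splice choice, were followed through 8 lists of genomic regions from PC9 cells, a lung adenocarcinoma line that carries an activating EGFR mutation. A gene was a member if its symbol began with SRSF, HNRNP, SNRP or SF3 or was PTBP1, PTBP2 or RBM4, leaving out numbered pseudogene names and names with a hyphen. By that rule, 51 of the 18284 gene names in the lists were members. RefSeq holds 62 protein-coding symbols of this form, and 11 of them were assigned no region in any list. The cells were wild type, without gene editing, and had been given osimertinib, an inhibitor of mutant EGFR, or DMSO as vehicle. Each treatment had 1 library for each of 4 targets: histone H3 trimethylated at lysine 4 (H3K4me3), a mark of active gene starts; H3K4me1, a mark found at enhancers and on the flanks of starts; the demethylase KDM1A (LSD1), which removes methyl groups from H3K4me1; and H3K9me3, a mark of silent chromatin. The sources used here give neither a dose nor a time of osimertinib for these libraries. The 6 samples of RNA and the 2 of IgG were not analysed here.

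Pre-mRNA splicing is carried out by the spliceosome, whose small nuclear ribonucleoproteins (snRNPs) carry the SNRP proteins, with the SF3 subunits as the part of the U2 snRNP that recognises the branch point. SR proteins and hnRNP proteins bind the transcript and promote or repress the use of nearby exons. The PKM transcript contains a pair of mutually exclusive exons: HNRNPA1, HNRNPA2B1 and PTBP1 repress the exon of the PKM1 isoform, SRSF3 promotes the exon of the PKM2 isoform, and RBM4 has been described as favouring PKM1. PTBP2 is the PTBP1 relative that is abundant in neurons. The series concerns PKM2 and the response to osimertinib, and these genes act upstream of the PKM isoform choice.

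The promoters shown are those on which the description below turns: 3 regulators of PKM splicing, 4 genes whose start was marked by H3K4me3 in 1 list only, and the SNRPN start that lay in an H3K9me3 region. Each sequence is the 250 bases before a RefSeq start (GRCh38.p14), read along the strand of the gene. Capitals mark letters of known motifs on either strand. The GC box was searched as GGGCGG and the TATA box as TATAAA. The ETS motif was searched as CCGGAAG, part of the NRF1 motif as GCATGCG, and the box named after its letters as CCAAT.  The windows are chr7:26200747-26200996 on the minus strand for HNRNPA2B1, chr19:797202-797451 on the plus strand for PTBP1 and chr6:36594112-36594361 on the plus strand for SRSF3.
HNRNPA2B1: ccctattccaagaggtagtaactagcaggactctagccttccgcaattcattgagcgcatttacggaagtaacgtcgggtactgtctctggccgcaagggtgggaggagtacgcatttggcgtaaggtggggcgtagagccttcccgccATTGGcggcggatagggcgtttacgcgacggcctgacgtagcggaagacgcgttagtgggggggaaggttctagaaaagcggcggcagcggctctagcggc
PTBP1: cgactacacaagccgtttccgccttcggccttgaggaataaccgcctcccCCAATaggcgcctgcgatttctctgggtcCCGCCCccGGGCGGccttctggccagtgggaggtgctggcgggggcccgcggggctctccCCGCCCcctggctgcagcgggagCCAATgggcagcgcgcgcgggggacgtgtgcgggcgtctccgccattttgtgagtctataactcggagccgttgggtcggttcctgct
SRSF3: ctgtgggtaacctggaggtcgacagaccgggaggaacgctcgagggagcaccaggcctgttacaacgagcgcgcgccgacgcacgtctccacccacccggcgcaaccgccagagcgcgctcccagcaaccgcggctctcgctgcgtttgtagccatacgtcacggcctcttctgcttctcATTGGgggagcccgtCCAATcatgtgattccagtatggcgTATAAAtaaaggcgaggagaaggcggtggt
The genes marked in 1 list only are SF3B6 (chr2:24076327-24076576, minus strand), SF3B5 (chr6:144095574-144095823, minus strand) and SNRPF (chr12:95858702-95858951, plus strand), listed with vehicle, and SNRPC (chr6:34757255-34757504, plus strand), listed with osimertinib. In SNRPC the ETS letters on both strands overlap in 1 run.
SF3B6: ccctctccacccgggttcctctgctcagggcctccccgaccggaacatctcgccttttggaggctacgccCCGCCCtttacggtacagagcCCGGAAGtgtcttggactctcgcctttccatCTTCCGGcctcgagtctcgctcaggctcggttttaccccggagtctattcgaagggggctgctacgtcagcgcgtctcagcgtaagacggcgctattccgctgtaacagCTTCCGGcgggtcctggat
SF3B5: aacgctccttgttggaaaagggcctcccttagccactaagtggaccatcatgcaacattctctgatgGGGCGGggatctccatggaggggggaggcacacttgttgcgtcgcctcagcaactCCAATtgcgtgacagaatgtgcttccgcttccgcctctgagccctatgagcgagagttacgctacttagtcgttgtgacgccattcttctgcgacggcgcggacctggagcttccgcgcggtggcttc
SNRPF: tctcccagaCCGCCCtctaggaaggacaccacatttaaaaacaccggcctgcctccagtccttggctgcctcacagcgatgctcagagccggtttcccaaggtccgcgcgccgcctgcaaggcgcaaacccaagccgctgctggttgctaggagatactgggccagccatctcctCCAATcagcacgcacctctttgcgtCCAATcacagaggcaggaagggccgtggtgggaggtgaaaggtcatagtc
SNRPC: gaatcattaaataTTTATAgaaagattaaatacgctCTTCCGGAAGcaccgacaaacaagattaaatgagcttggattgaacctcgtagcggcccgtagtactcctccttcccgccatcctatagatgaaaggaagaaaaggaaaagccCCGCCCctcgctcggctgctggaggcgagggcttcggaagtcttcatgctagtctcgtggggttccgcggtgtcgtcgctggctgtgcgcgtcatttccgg
The SNRPN window (chr15:24954737-24954986, plus strand) is 1 of several starts of that gene.
SNRPN: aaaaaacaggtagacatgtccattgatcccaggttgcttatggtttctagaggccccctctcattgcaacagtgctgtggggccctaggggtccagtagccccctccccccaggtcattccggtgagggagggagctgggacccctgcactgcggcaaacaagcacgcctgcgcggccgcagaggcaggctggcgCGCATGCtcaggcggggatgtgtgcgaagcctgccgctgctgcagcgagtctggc

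The member promoters were rich in CpG and in ETS letters. Over the 47 members with a RefSeq window of 300 bases (250 before and 50 after the start; for genes with several windows, the first in RefSeq's table), the median window held 29 CpG dinucleotides and 62.3% G or C, against 14 CpG and 58.3% over 27305 promoter windows. The ETS letters CCGGAAG were in 16 members (34.0%) and in 10.7% of all windows. GC box letters were in 32 members (68.1%) and in 44.6% of all windows, and the E-box CACGTG was in 7 members (14.9%) and in 7.43% of all. The CCAAT box was in 19 members (40.4%, against 35.7%), TATAAA in 6 (12.8%, against 12.0%) and GCATGCG in 2 (4.26%, against 4.13%). These are matches of letters on both strands and describe the windows only.

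H3K4me3 was listed at the promoters of most splicing factor genes under both treatments. A promoter region here is one that the authors classed as within 3 kb of a transcript start and assigned to the gene, and presence is being in a list or not. Of 47 members with an H3K4me3 promoter region in either list, 4 had it in the osimertinib list only, 5 in the vehicle list only and 38 (80.9%) in both. Over all 9772 genes with such a region, 17.3% were in the osimertinib list only, 27.5% in the vehicle list only and 55.2% in both. The osimertinib list held 95 member regions of 13285 and the vehicle list 72 of 11621. With 1 library for each target and treatment no difference between treatments has a replicate check, and no test was made. A list of 79 other splicing genes outside the rule, such as the PRPF, LSM and SNRNP genes, had 69 with a promoter region, of which 4 were in the osimertinib list only, 11 in the vehicle list only and 54 in both.

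**Figure D1:**
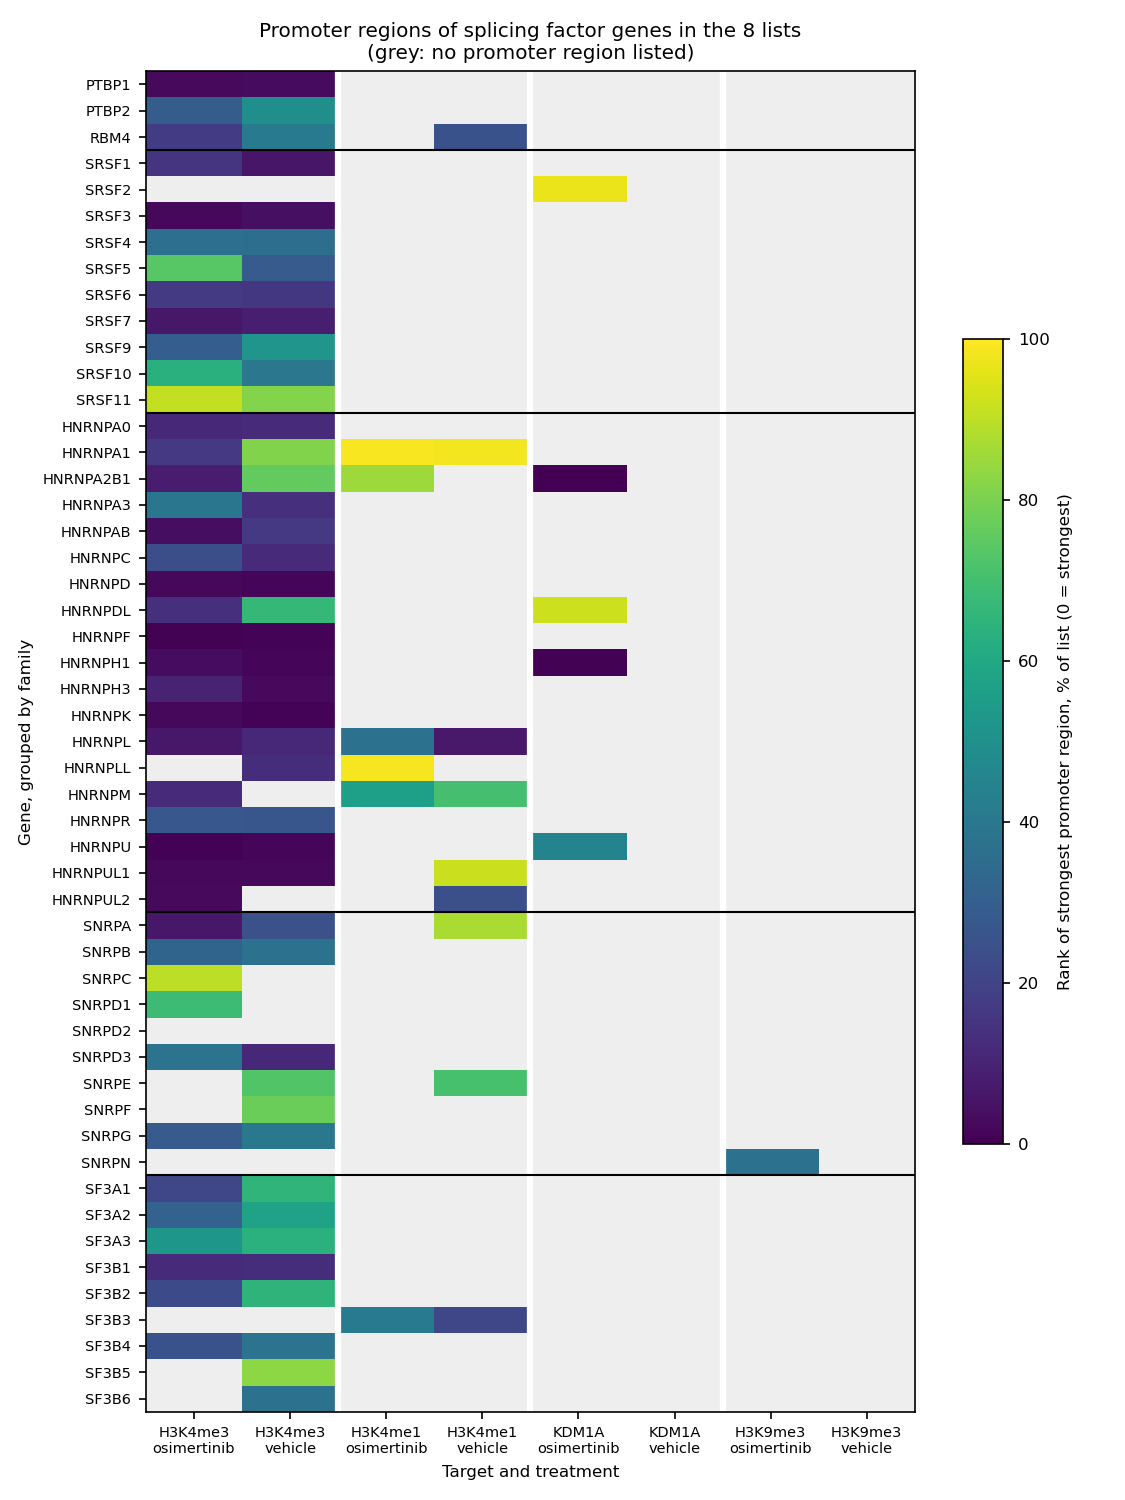
Promoter regions of the 51 splicing factor genes (rows, grouped by family) in the 8 lists (columns, osimertinib left of vehicle for each target). Colour gives the rank of the strongest promoter region as a percentage of its list, from 0 for the strongest; grey means that no promoter region is listed. H3K4me3 fills 42 rows with osimertinib and 43 with vehicle, whereas KDM1A fills 5 and 0 and H3K9me3 fills 1 and 0.

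**Figure D2:**
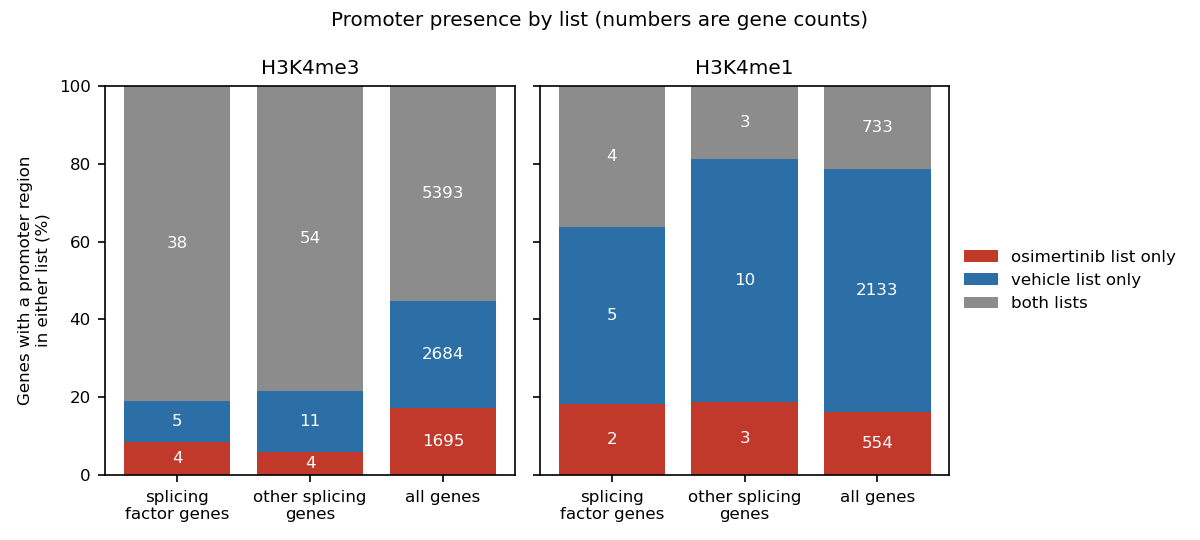
Shares of genes (y axis, percent of genes with a promoter region in either list) found in the osimertinib list only, the vehicle list only or both, for splicing factor genes, other splicing genes and all genes. Numbers in the bars are gene counts. For H3K4me3 the shared portion holds 38 of 47 splicing factor genes, and for H3K4me1 it holds 4 of 11.

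In the H3K4me3 lists the members also lay higher than all genes when regions were ordered by the deposited signal, in which rank 1 is the strongest. The strongest promoter region of a member had a median rank of 2219 of 13285 with osimertinib (42 genes, 16.7% from the top), against 4739.5 (35.7%) over all genes of that list. With vehicle the median was 3096 of 11621 (43 genes, 26.6%), against 4419 (38.0%) over all genes. The families differed, and hnRNP genes stood highest (median 7.23% from the top with osimertinib and 12.3% with vehicle). With vehicle the SF3 subunits (60.7%), the PKM regulators (45.7%) and, slightly, the snRNP genes (38.7%) lay below all genes. These places count only regions under a gene's own name. The vehicle regions over the HNRNPA1 and HNRNPA2B1 starts, assigned to CBX5 and CBX3, ranked 494 and 11. Those over the SF3A2 and SF3B3 starts, assigned to PLEKHJ1 and COG4, ranked 824 and 1025. Family medians by the region over the start were not computed. With osimertinib the snRNP genes (35.1%) lay close to all genes. The rank is the best over a gene's promoter regions, and members had more H3K4me3 regions for each gene than all genes had. What this added to the medians was not tested. The other splicing genes had a median of 23.5% from the top with osimertinib and 26.5% with vehicle, the second of these close to that of the members. The strongest 10% of the list held 15 members (35.7%) with osimertinib and 11 (25.6%) with vehicle, against 15.9% and 14.1% of all genes in the same lists. For the other splicing genes these shares were 13.8% with osimertinib and 24.6% with vehicle. Among the member families the share was highest for hnRNP genes (61.1% and 41.2%) and 0 in both lists for SF3 subunits. Ranks are places within a list, and a difference in rank between lists of unequal length does not measure a change.

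All 6 PKM splice regulators were in both lists for H3K4me3 at the promoter. PTBP1 ranked 360 with osimertinib and 359 with vehicle, and SRSF3 ranked 310 and 477 in the same order, which put both genes in the strongest 10% of each list. RBM4 ranked 2368 with osimertinib and 4837 with vehicle, and PTBP2 ranked 3897 and 5781. The order within the osimertinib list was SRSF3, PTBP1, HNRNPA2B1, HNRNPA1, RBM4 and PTBP2, and within the vehicle list PTBP1, SRSF3, RBM4, PTBP2, HNRNPA2B1 and HNRNPA1.

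HNRNPA1 and HNRNPA2B1 stood low in the vehicle list by this measure, and the regions at their starts carried another gene's name. The strongest region assigned to HNRNPA1 ranked 2180 with osimertinib and 9423 with vehicle. The region that covers the HNRNPA1 start was assigned to the neighbour CBX5, a heterochromatin protein gene, and ranked 477 with osimertinib and 494 with vehicle. For HNRNPA2B1 the strongest region assigned to the gene ranked 1053 with osimertinib and 8823 with vehicle. The region over its start was assigned to CBX3, which starts close by on the opposite strand, and ranked 66 with osimertinib and 11 with vehicle. The sequence printed above for HNRNPA2B1 lies wholly in both of these CBX3 regions. By the region over the start, HNRNPA2B1 thus had the highest place of the 6 regulators in both lists.

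For 5 of these 6 genes the osimertinib list held more H3K4me3 regions than the vehicle list. HNRNPA1 was assigned 2 regions with osimertinib and 1 with vehicle, and HNRNPA2B1 3 and 1. PTBP1 was assigned 5 with osimertinib and 2 with vehicle, SRSF3 6 and 3, and RBM4 4 and 2, while PTBP2 had 1 in each list. The PTBP1 region nearest to the printed start was centred at -371 bp (upstream) with osimertinib and at 2262 bp (downstream) with vehicle, and 3 more osimertinib regions were centred 4006, 7725 and 11018 bp downstream. SRSF3 also had intergenic regions upstream, at -6594, -11533 and -16803 bp by the authors' distance, with osimertinib, at ranks 10734, 9888 and 9644. The vehicle list had no H3K4me3 region assigned to SRSF3 that far upstream. Over all members the count was 2.21 H3K4me3 regions for each gene with osimertinib and 1.60 with vehicle, and over all genes it was 1.68 and 1.40. Promoter regions made up 84.2% of member regions with osimertinib and 94.4% with vehicle, against 73.5% and 90.5% of all regions. The whole osimertinib list was the longer (13285 regions against 11621), with 3527 regions outside promoters against 1105. How many of all genes had more H3K4me3 regions with osimertinib was not counted.

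**Figure D3:**
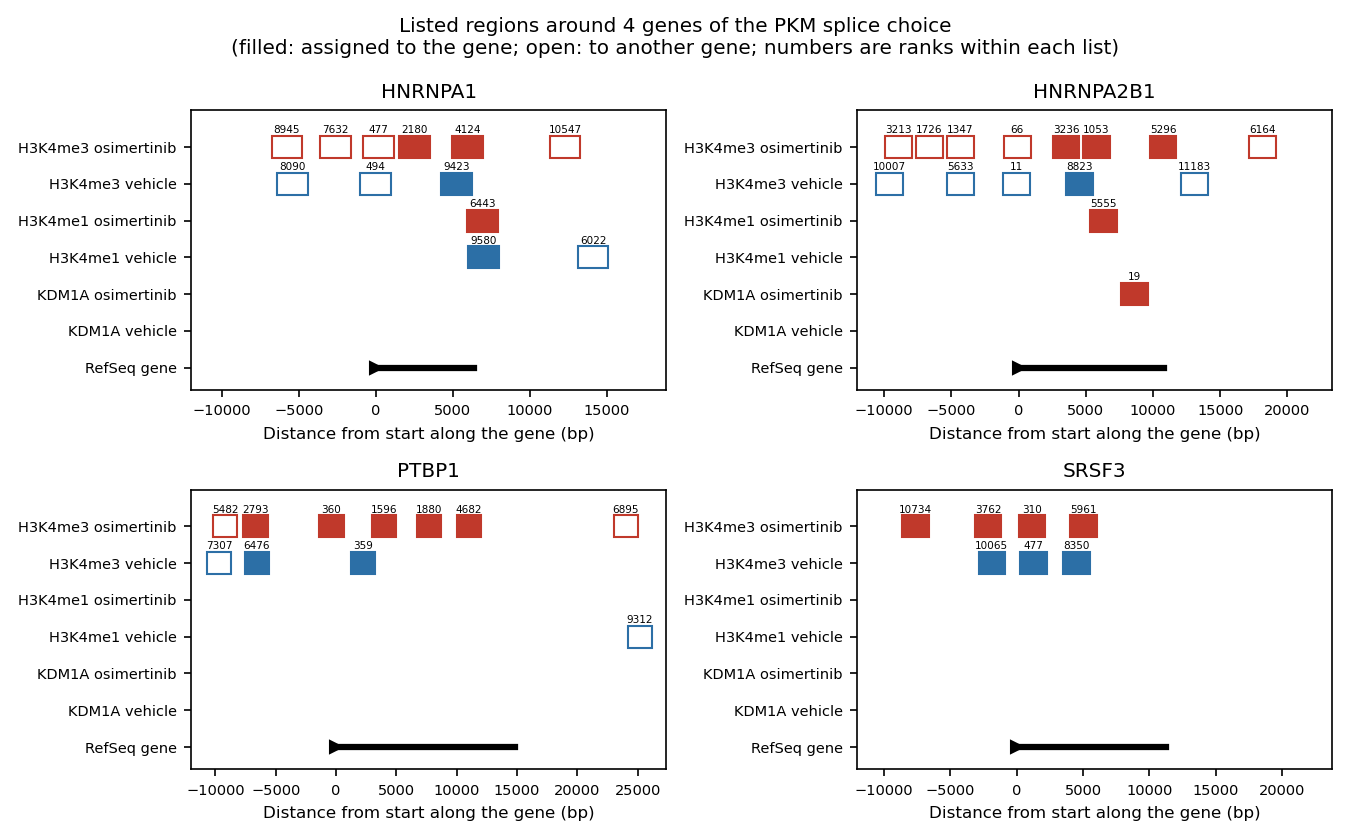
Regions of 3 targets (rows, osimertinib above vehicle) around HNRNPA1, HNRNPA2B1, PTBP1 and SRSF3, drawn by distance in bp from the RefSeq start along the gene, within about 10 kb of the gene. Filled boxes are assigned to the gene, open boxes to another gene, and the numbers are ranks within each list. The boxes over the HNRNPA1 and HNRNPA2B1 starts are open, at ranks 477 and 66 with osimertinib and 494 and 11 with vehicle.

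All 9 SR genes with an H3K4me3 promoter region had it in both lists, with a median rank of 3966 with osimertinib and 3355 with vehicle. After SRSF3, SRSF7 ranked 856 with osimertinib and 998 with vehicle, and SRSF1, the founding member of the family, ranked 2022 and 724. SRSF11 stood lowest, at 12080 with osimertinib and 9477 with vehicle. SRSF8 and SRSF12 were assigned no region in any list and are not counted. The remaining SR gene of the lists, SRSF2, which promotes exon inclusion, had no H3K4me3 promoter region under its own name. Its start lay within 1 kb of a region assigned to MFSD11, the gene on the opposite strand, which ranked 92 with osimertinib and 87 with vehicle.

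The hnRNP genes held the top places. All 19 that were assigned a region in any list had an H3K4me3 promoter region, 16 of them in both lists. Their median rank was 960 with osimertinib and 1435 with vehicle. HNRNPA1L2, HNRNPA1L3, HNRNPCL1, HNRNPCL2, HNRNPCL3, HNRNPCL4 and HNRNPH2 were assigned no region in any list and are not counted. HNRNPU, a scaffold protein of the nucleus, ranked 70 with osimertinib and 138 with vehicle, and HNRNPF, which binds G-rich RNA, ranked 75 and 94. HNRNPK ranked 281 with osimertinib and 111 with vehicle, and HNRNPD, also known as AUF1, ranked 291 and 189. The other gene among the top 5 was HNRNPUL1 at 275 in the osimertinib list (236 with vehicle) and HNRNPH1 at 218 in the vehicle list (433 with osimertinib). HNRNPM, which had its promoter region in the osimertinib list only (rank 1644), overlapped a vehicle region assigned to AC136469.2 (rank 3311). HNRNPLL was in the vehicle list only (rank 1525), and its region overlapped an osimertinib region assigned to AC011247.2 (rank 4997). HNRNPUL2 was in the osimertinib list only (rank 334), with a vehicle region of rank 32 at 2636 bp that bore the read-through name HNRNPUL2-BSCL2. For these 3 genes, presence in 1 list only went with a region of the other list at or near the same place under another name.

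The snRNP genes had the smallest share of genes in both lists among the 4 large families. Of 8 with an H3K4me3 promoter region, 2 were in the osimertinib list only, 2 in the vehicle list only and 4 in both, with a median rank of 4669.5 with osimertinib and 4493.5 with vehicle. The highest place was that of SNRPA, the U1 snRNP protein A, at 852 with osimertinib and 2879 with vehicle. SNRPC, the U1 snRNP protein C, was listed with osimertinib at rank 11983, and the nearest vehicle region lay 33540 bp away. SNRPD1, a protein of the Sm ring, was listed with osimertinib at rank 9098, and the nearest vehicle region lay 9480 bp away. The Sm proteins SNRPE and SNRPF were listed with vehicle at ranks 8475 and 9006, with the nearest osimertinib region 24568 and 56972 bp away. All 4 stood in the weaker part of their list. SNRPD2, a further Sm protein gene, had only regions outside promoters under its own name, while its start lay in a region assigned to QPCTL that ranked 5960 with osimertinib and 1390 with vehicle. SNRPN, the tissue-restricted Sm protein gene, had no H3K4me3 region in either list. SNRPA1 and SNRPB2 were assigned no region in any list and are not counted.

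Among the SF3 subunits, 6 of the 8 genes with an H3K4me3 promoter region were in both lists and SF3B5 and SF3B6 in the vehicle list only. The median rank was 3163 with osimertinib and 7059.5 with vehicle. SF3B1, the largest subunit and a gene mutated in some leukaemias, ranked 1558 with osimertinib and 1511 with vehicle. SF3B6, which contacts the branch point adenosine, was listed with vehicle at rank 4329, and the nearest osimertinib region lay 44160 bp away. SF3B5, a small subunit, was listed with vehicle at rank 9628, and the nearest osimertinib region lay 188815 bp away. SF3B3 had no H3K4me3 promoter region under its own name, and its start lay in a region assigned to COG4 that ranked 616 with osimertinib and 1025 with vehicle.

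Counting every H3K4me3 region within 1 kb of a RefSeq start, whichever gene it was assigned to, left fewer genes in 1 list only. Of 60 protein-coding symbols of the rule with a start that could be used, 47 (78.3%) had such a region with osimertinib and 50 (83.3%) with vehicle, against 34.5% and 43.2% of 17635 protein-coding genes. By this count SNRPC and SNRPD1 were in the osimertinib list only, 5 genes (SF3B5, SF3B6, SNRPE, SNRPF and HNRNPA1L2) in the vehicle list only, 45 in both and 8 in neither. Over all protein-coding genes with such a region, 9.95% were in the osimertinib list only, 28.1% in the vehicle list only and 62.0% in both. HNRNPA1L2 is an intronless relative of HNRNPA1, and the vehicle region at its start was assigned to MRPS31P4 at rank 10588. The region nearest to the start carried another gene's name for 10 of the 47 genes with osimertinib and 13 of the 50 with vehicle. Among them HNRNPH2 had start regions assigned to GLA, at rank 1814 with osimertinib and 1303 with vehicle. HNRNPU was also among them with vehicle, though its own region of rank 138 lay within 1 kb as well. The nearest region covered the start itself for 39 genes with osimertinib and 38 with vehicle, and its centre lay downstream for 35 and 33. The median centre was 370 bp downstream with osimertinib and 333.5 bp with vehicle.

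**Figure D4:**
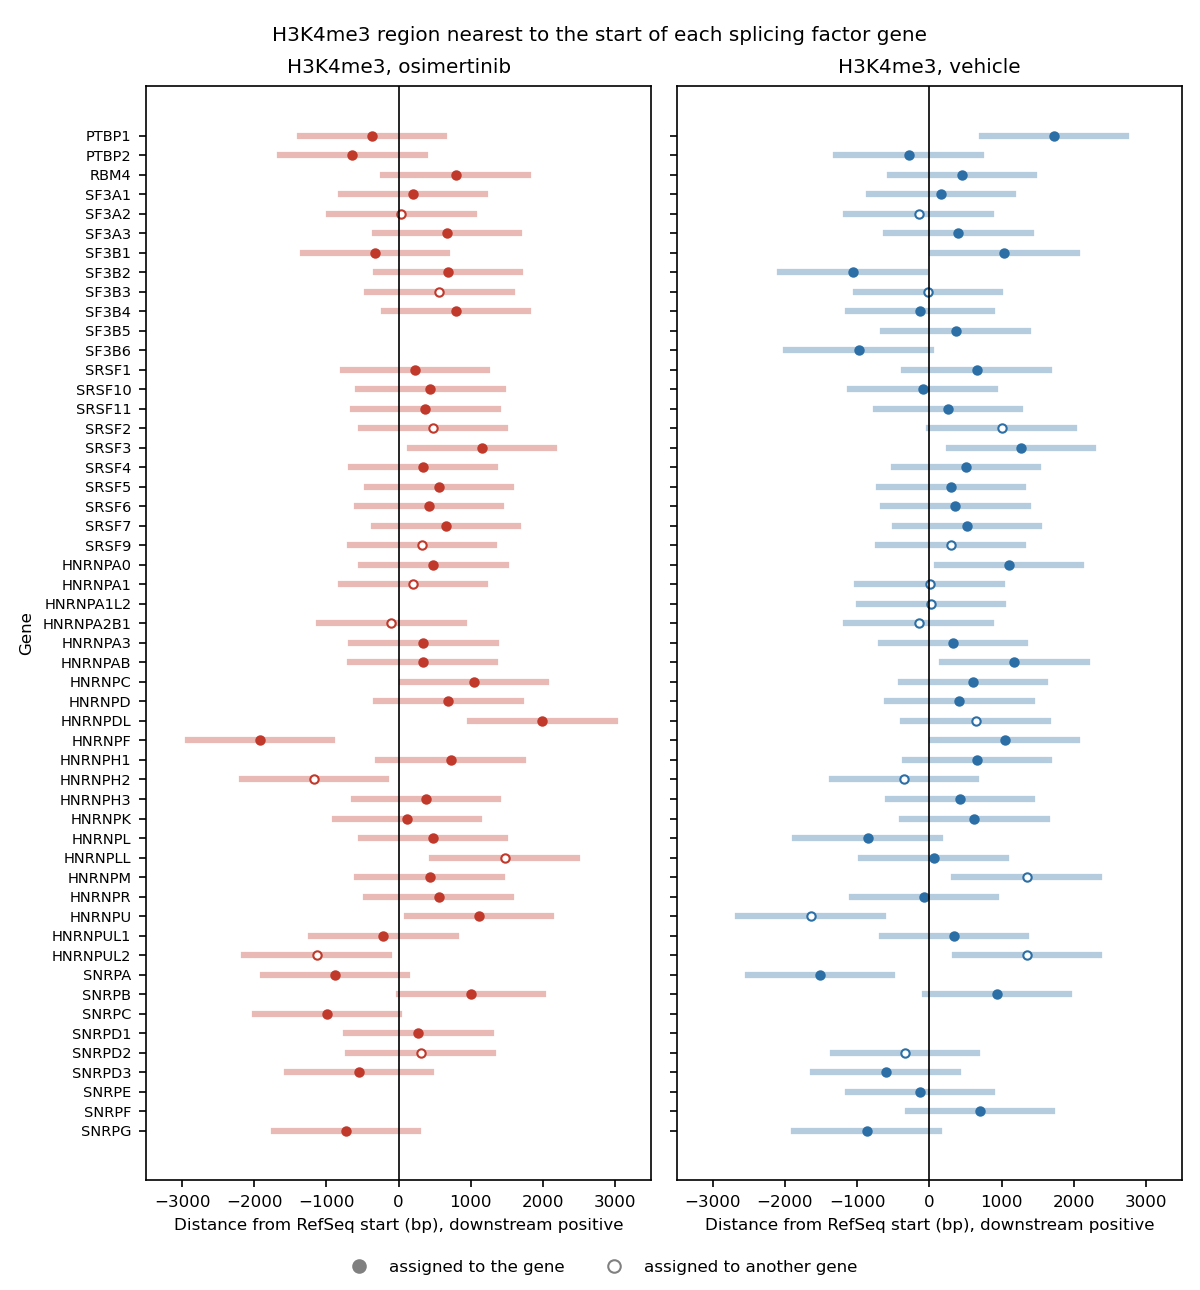
The H3K4me3 region nearest to a RefSeq start of each splicing factor gene (rows) with osimertinib (left) and vehicle (right). The x axis is distance from that start in bp, positive downstream; bars span each 2 kb region and points its centre, filled where the region is assigned to the gene. Rows empty on 1 side are SNRPC and SNRPD1 with vehicle and SF3B5, SF3B6, SNRPE, SNRPF and HNRNPA1L2 with osimertinib.

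H3K4me1 was assigned to the promoter class of few splicing factor genes, and to no SR protein gene. Of 11 members with an H3K4me1 promoter region in either list, 2 were in the osimertinib list only, 5 in the vehicle list only and 4 in both. Over all 3420 genes with such a region, 16.2% were in the osimertinib list only, 62.4% in the vehicle list only and 21.4% in both. The osimertinib list held 11 member regions of 6515 and the vehicle list 21 of 9761. The genes in both lists were HNRNPL, at rank 2461 of 6515 with osimertinib and 650 of 9761 with vehicle, SF3B3 at 2708 and 2090, HNRNPM at 3667 and 6899, and HNRNPA1 at 6443 and 9580. HNRNPL, which binds CA-rich RNA, had 3 H3K4me1 regions with osimertinib and 5 with vehicle, and SF3B3 likewise 3 and 5. HNRNPA2B1 (rank 5555) and HNRNPLL (rank 6431) were in the osimertinib list only. The vehicle list alone had HNRNPUL2 (rank 2396), RBM4 (2462), SNRPE (6925), SNRPA (8514) and HNRNPUL1 (8971).

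By rank, the members lay lower in the H3K4me1 lists than all genes, with a median of 70.8% from the top with osimertinib (6 genes, against 53.5% for all) and 70.7% with vehicle (9 genes, against 50.2%). Within 1 kb of a start, 0 members had a region with osimertinib and 6 with vehicle (HNRNPL, HNRNPM, HNRNPUL1, HNRNPUL2, RBM4 and SNRPE). With vehicle that was 6 of the 60 members with a usable start. Over all protein-coding genes, 1.35% had one with osimertinib and 6.83% with vehicle. Of the members with an H3K4me1 promoter region under their own name, 0 of 6 with osimertinib and 6 of 9 (66.7%) with vehicle had one at a RefSeq start, against 29.0% and 54.3% of all protein-coding genes with such a region. Regions outside the promoter class were assigned to SRSF7 with osimertinib (an intron region of rank 6319), and to HNRNPF, HNRNPM and SRSF3 with vehicle. The SRSF3 region was intergenic, at -14810 bp and rank 8345, in the same stretch in which the osimertinib H3K4me3 list held its intergenic SRSF3 regions.

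KDM1A regions were assigned to 5 of the 51 members with osimertinib and to 0 with vehicle. The osimertinib list was the longer, with 8882 regions against 4731. Of the 18284 gene names in all lists, 3882 had a KDM1A region with osimertinib and 3392 with vehicle. All 5 carried the promoter class, as did 15.4% of all 8882 regions of the osimertinib list. Over all 1761 genes with a KDM1A promoter region, 59.1% were in the osimertinib list only, 33.9% in the vehicle list only and 6.98% in both. HNRNPA2B1 ranked 19 of 8882 and HNRNPH1, a G-rich RNA binder, ranked 65, with deposited signals of 6.08 and 3.11 where the median of the list was 1.13. HNRNPU ranked 4016, HNRNPDL 8207 and SRSF2 8632, so the last of these stood near the foot of the list. The 79 other splicing genes also had 5 with a KDM1A promoter region with osimertinib and 0 with vehicle, among them QKI at rank 96 and TRA2A, a splicing activator, at rank 535.

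None of the 5 KDM1A regions lay at the RefSeq start. In HNRNPA2B1 the region chr7:26191117-26193116 was centred 8630 bp from the start, 79.8% of the way along the gene. In HNRNPH1 the region chr5:179613594-179615593 was centred at 98.0% of the gene, in HNRNPU chr1:244852854-244854853 at 75.0%, in SRSF2 chr17:76733487-76735486 at 88.7% and in HNRNPDL chr4:82425528-82427527 at 49.8%. All 5 genes lie on the minus strand, and the coordinates are those of GRCh38. The authors' distance from these regions to the nearest transcript start was between 0 and 1870 bp. Of all protein-coding genes with a KDM1A promoter region, 17.6% of 524 with osimertinib and 21.6% of 329 with vehicle had one within 1 kb of a RefSeq start. The same 5 places had H3K4me3 close by with osimertinib: the KDM1A regions of HNRNPH1, HNRNPDL and SRSF2 overlapped an H3K4me3 region, and those of HNRNPA2B1 and HNRNPU lay 119 and 1620 bp from one. The vehicle H3K4me3 list also had regions there: the places in HNRNPDL and SRSF2 overlapped one, and those in HNRNPH1, HNRNPA2B1 and HNRNPU lay 1698, 2110 and 6935 bp from one. How many of all KDM1A regions lay this close to an H3K4me3 region was not counted, so this nearness is not shown to be particular to the members. The nearest vehicle KDM1A region lay between 179779 bp (HNRNPH1) and 1495241 bp (HNRNPDL) away.

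The KDM1A lists were unevenly spread over chromosomes. Chromosome 5, which carries HNRNPH1, held 25.9% of KDM1A regions with osimertinib and 17.4% with vehicle, against 3.54% and 3.76% of H3K4me3 regions. Chromosome 7, which carries HNRNPA2B1, held 11.3% and 9.32% of KDM1A regions, against 5.25% and 5.08% of H3K4me3 regions. With osimertinib, chromosomes 1 (HNRNPU) and 4 (HNRNPDL) held 11.1% and 1.81% of KDM1A regions, against 11.0% and 1.75% of H3K4me3 regions. Chromosome 17, which carries SRSF2, held 0.608% of KDM1A regions and 7.75% of H3K4me3 regions. These are shares of whole chromosomes, and the density of KDM1A regions near HNRNPH1 or HNRNPA2B1 was not measured. The part of these shares in the HNRNPH1 and HNRNPA2B1 regions was not tested. Regions named for numbered pseudogenes of the same families, left out by the rule, were more frequent in the KDM1A lists than the genes themselves, with 29 regions in 13 names with osimertinib and 22 in 14 with vehicle. The same held for H3K9me3, with 7 such regions with osimertinib and 4 with vehicle, against 1 and 0 member regions. H3K4me1 had 9 such regions with osimertinib and 12 with vehicle, against 11 and 21 member regions. H3K4me3 had 9 such regions with osimertinib and 3 with vehicle, against 95 and 72 member regions. The share over all pseudogene names was not counted.

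The single H3K9me3 region of a member lay in SNRPN, an imprinted gene expressed from the paternal copy. It was listed with osimertinib, at rank 770 of 2073, and the vehicle list had 0 member regions of 2749. Over all 738 genes with an H3K9me3 promoter region, 39.3% were in the osimertinib list only, 30.2% in the vehicle list only and 30.5% in both. The region chr15:24954443-24956442 contained the SNRPN window printed above and a further RefSeq start of the gene. The nearest vehicle H3K9me3 region, assigned to PWRN3, lay 560155 bp away. The nearest H3K4me3 regions were 480954 bp away with osimertinib and 481244 bp with vehicle, both assigned to UBE3A.

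The lists matched an epithelial line: all 6 epithelial markers checked (EPCAM, KRT8, KRT18, KRT19, CDH1 and CLDN4) had H3K4me3 promoter regions with both treatments, and 5 markers of other cell types (PTPRC, CD3E, COL1A1, PECAM1 and VIM) had none in either list.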

How the data were processed

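Regions of KDM1A, H3K4me1, H3K4me3 and H3K9me3 from wild-type PC9 cells, 1 library for each target and treatment, were analysed. Per the submitters' processing notes the genome was GRCh38 (hg38) and the tools were HISAT2, featureCounts and Bowtie2 2.3.4. The peak caller, threshold, control and assay type are not given in the sources used. The deposited signal has only positive values and its scale is unknown, so it ranked regions within a list only. A further deposited column, in another unit, is the authors' distance in bp to a transcript start. Every region spans 2 kb, lists were not pooled, and read depth is unknown, so precision cannot be given.

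Presence of a promoter region and the best rank were computed for each gene, and the same over all genes. No p-value was computed. RefSeq starts and promoter sequences (GRCh38.p14) matched 47 of 51 members by symbol, and gene extents gave 4 more starts. Named were the 6 PKM regulators, members listed with 1 treatment only, members with a KDM1A or H3K9me3 region, the 5 top ranks of each H3K4me3 and H3K4me1 list, and members without an H3K4me3 promoter region. Other names were chosen after their values were seen. The result of 1 further marker is not reported here. Members and lists were chosen with earlier results of these data known. There were 8 other settings and 1 added after seeing the data. Python 3.11.15, numpy 2.4.6, pandas 2.3.3 and matplotlib 3.10.9 were used. The counting was tested on simulated data.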

Additional observations from a re-analysis of the deposited data

How the results depend on the processing

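Of 108 counts of members recomputed under 8 other settings and 1 added after seeing the data (any region within 1 kb of a RefSeq start), 36 were 0 in every setting and had little room to move, and 58 of the other 72 stayed within 1.5 times the reported count. Keeping the stronger 50% of each list gave 9 H3K4me3 genes in the osimertinib list only, 0 H3K4me1 genes there, 2 in the vehicle list only and 2 in both, and 3 KDM1A genes with osimertinib. Equal numbers of regions gave 4 H3K4me1 genes in the osimertinib list only, 2 in the vehicle list only and 2 in both, and 3 KDM1A genes with osimertinib. Both settings hold fewer regions by construction. Promoters within 1 kb gave 1 H3K4me1 gene in the osimertinib list only. Regions within 1 kb of a RefSeq start gave 2 H3K4me3 genes in the osimertinib list only, 0 H3K4me1 genes there and 0 in both, and 0 KDM1A genes with osimertinib. That setting drops gene assignment and also replaces the authors' promoter class by distance to a RefSeq start, and all 5 KDM1A regions lay over 1 kb from one. Gene names taken from gene IDs changed no count. No paired analysis was possible because each group has 1 library, and for the same reason no replicate could be left out. Absence from a list can be a region just under an unknown threshold.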
